A study of Saccharomyces cerevisiae with 12 samples.

Results

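The genes described here are 56 of the 7126 features in the deposited table, chosen by name: 55 enzymes of 9 amino acid biosynthesis groups (arginine, histidine, lysine, branched-chain, aromatic, threonine, serine, asparagine and proline) and *GCN4*, which codes for the transcription factor that acts on many of them. Enzymes of glutamate and of the sulfur amino acids were not in the list. All 56 passed the filter on low values, with a lowest mean of 39.1 FPKM, a measure of reads per gene scaled to gene length and library depth. The data are RNA-seq profiles of budding yeast, *Saccharomyces cerevisiae*, made to ask how loss of *RRD1*, which codes for an activator of PP2A-type phosphatases, alters the response to rapamycin. The 4 groups hold 3 libraries each. They are the wild-type strain BY4730 (WT) in YPD in log phase with no drug, WT with 100 nM rapamycin, the *RRD1* knockout strain YSC6273-201925697 (KO) with no drug, and KO with 100 nM rapamycin, all cultured for 50 min before RNA was extracted. The KO is a single strain from a supplier, and its parent is not given in the sources used here. The labels say that the experiment was repeated on 3 days but not which libraries share a day, so the spread below is that between these 3 libraries.

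Yeast cells make most amino acids themselves. When uncharged tRNA accumulates, the kinase Gcn2 phosphorylates the initiation factor eIF2, and ribosomes then pass short upstream open reading frames (uORFs) in the *GCN4* leader and translate the protein, so that Gcn4 is controlled largely at translation and less at the level of its mRNA. Gcn4 binds the core TGACTC, and its targets lie in most of the pathways below, a program called general amino acid control. Rapamycin inhibits TORC1, the kinase complex that holds back both Gcn2 and the GATA factors Gln3 and Gat1 in rich medium.

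The uORFs are shown because they are the control elements of *GCN4* (YEL009C, chrV:138918-139763, minus strand). In RefSeq's R64 sequence the leader holds 4 of them, printed with start and stop codons in capitals. The distances run from the last base of each to the first base of the start codon.
uORF 1, chrV:140113-140124, 350 bases before the start codon: ATGgcttgcTAA
uORF 2, chrV:140048-140056, 285 bases before it: ATGtgtTAA
uORF 3, chrV:139928-139939, 165 bases before it: ATGtacccgTAG
uORF 4, chrV:139903-139914, 140 bases before it: ATGtttccgTAA
These elements act on translation, which RNA-seq does not measure.

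The window from 250 bases before to 50 bases after each start codon was searched for TGACTC on both strands. It holds the core in 32 of 56 members (57.1%) and in 479 of 6001 genes of R64 (7.98%). The sites below are shown because members with the core rose (*ARG4*, *HIS3*, *HIS5*, *LYS1*, *TRP4*, *ASN1*), were not called (*ASN2*) or fell (*BAT1*, *HIS6*) with rapamycin. Each is given on the strand of its gene, 5′ to 3′, with 12 bases on either side and the core in capitals, which reads GAGTCA where it lies on the opposite strand.
ARG4, 179 bases before the start codon, chrVIII:141564-141593, minus strand: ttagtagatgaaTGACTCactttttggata
HIS3, 122 bases before it, chrXV:721812-721841, plus strand: ccacctagcggaTGACTCtttttttttctt
HIS5, 202 bases before it, chrIX:142714-142743, plus strand: tcttggatctgtTGACTCacttcaattgat
LYS1, 134 bases before it, chrIX:420853-420882, minus strand: ttcagcgacaaaGAGTCAtaaagtcatcct
TRP4, 165 bases before it, chrIV:1184570-1184599, plus strand: acctacgcagatTGACTCtctaaaaaatga
ASN1, 227 bases before it, chrXVI:822381-822410, plus strand: tcatgtaacattTGACTCattctgtaaact
ASN2, 197 bases before it, chrVII:739735-739764, plus strand: ttttcttagcatTGACTCatggcaagattt
BAT1, 171 bases before it, chrVIII:517349-517378, plus strand: attgccttcttaTGACTCaaaattctattg
HIS6, 94 bases before it, chrIX:314897-314926, minus strand: gtctagtgtgcaGAGTCAtacggaataatt
A match of 6 letters is a description of the sequence and not evidence of binding. The core was present in 6 of 7 histidine genes, 3 of 6 arginine genes and both asparagine genes. It was also present in 6 of 10 branched-chain, 4 of 11 aromatic and 3 of 7 lysine genes. For threonine, serine and proline the counts were 3 of 5, 3 of 4 and 2 of 3. GATAAG, a letter string that GATA factors recognise, was found in 13 of 56 members (23.2%) and in 881 of 6001 genes (14.7%). *ARG1*, *ARG4*, *CPA1* and *LEU1* are among those members. In *LEU1* the only match starts 39 bases after the first base of the start codon.

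The labels were checked on the targeted gene: *RRD1* was between 47.5 and 85.3 FPKM in the 6 WT libraries and between 0 and 0.203 in the 6 KO libraries. *LEU2*, *URA3* and *MET17* are listed at 0 in all 12 libraries, of which *LEU2* codes for the enzyme after Leu1 in leucine synthesis. The a-factor genes *MFA1* and *MFA2* were abundant in both strains and took 24.8% to 34.2% of the FPKM sum in WT with rapamycin against 9.89% to 21.8% in KO with rapamycin. KO library 1 and KO with rapamycin library 2 stood apart from the others of their groups in *MFA1*, at 198870 against 67170 and 88463 FPKM without the drug, and at 320728 against 131465 and 125098 with it. *MFA2* was between 49038 and 53264 FPKM in KO, with no library apart. In KO with rapamycin it was 104285 in library 2 against 60635 and 57599. The mating genes *STE2* and *BAR1* set both libraries apart. *STE2* was at 882 against 531 and 537 FPKM without the drug, and at 1363 against 572 and 624 with it. *BAR1* was at 288 against 168 and 169, and at 488 against 192 and 251. Total counts of members called that rest on these 2 libraries are given with and without them. Counts by pathway, counts shared between the strains and calls of single genes use all libraries unless stated. FPKM sums were 2161391 to 2409926 in WT with rapamycin and 1848118 to 1947825 in KO with rapamycin, which moves differences between the strains when libraries are rescaled to equal sums. The depth implied by the steps between low values was 8440000 to 11800000 reads per library.

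With rapamycin, most of these genes rose in both strains. In WT 37 of 56 members were called higher (66.1%) and 7 lower (12.5%), where 35.9% and 16.3% of all 6497 features tested were called higher and lower. A call is an adjusted p under 0.01 in limma with Benjamini-Hochberg adjustment over all features. In KO 38 were called higher and 6 lower, where 36.4% and 10.3% of all features were. Without KO library 1 and KO with rapamycin library 2, described above, 36 were called higher and 4 lower in KO, against 29.6% and 7.71% of all features. The median log2 fold change of the members was 1.50 in WT and 1.23 in KO, against 0.30 and 0.34 over all features, so part of each rise is shared by the whole table. When the libraries were scaled by the median ratio, which removes that shift, 31 were called higher and 9 lower in WT, against 24.2% and 25% of all features, and 32 and 9 in KO, against 19.8% and 20.3%. The range in WT ran from -1.75 (*LEU1*) to 4.78 (*ARG1*).

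Of the members, 36 were called higher in both strains and 6 lower in both. The share of all features called in the same direction in both strains was not counted. In each strain alone, 35.9% (WT) and 36.4% (KO) of all features were called higher, and 16.3% and 10.3% lower. The joint counts use all 12 libraries. Without both KO libraries that stand apart, 36 members were called higher and 4 lower in KO. *HOM6* and *SER33* were called higher in KO but not in WT, *PRO2* was called higher and *ARO7* lower in WT but not in KO, and 10 were called in neither. None of these 4 genes was called in the test of the difference between the responses. Each library holds RNA of a whole culture, so a larger share of responding cells and a larger rise per cell cannot be told apart. The values are also relative to each library's total. In the pathways below, values given without a unit are log2 fold changes with rapamycin, WT before KO.

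**Figure D1:**
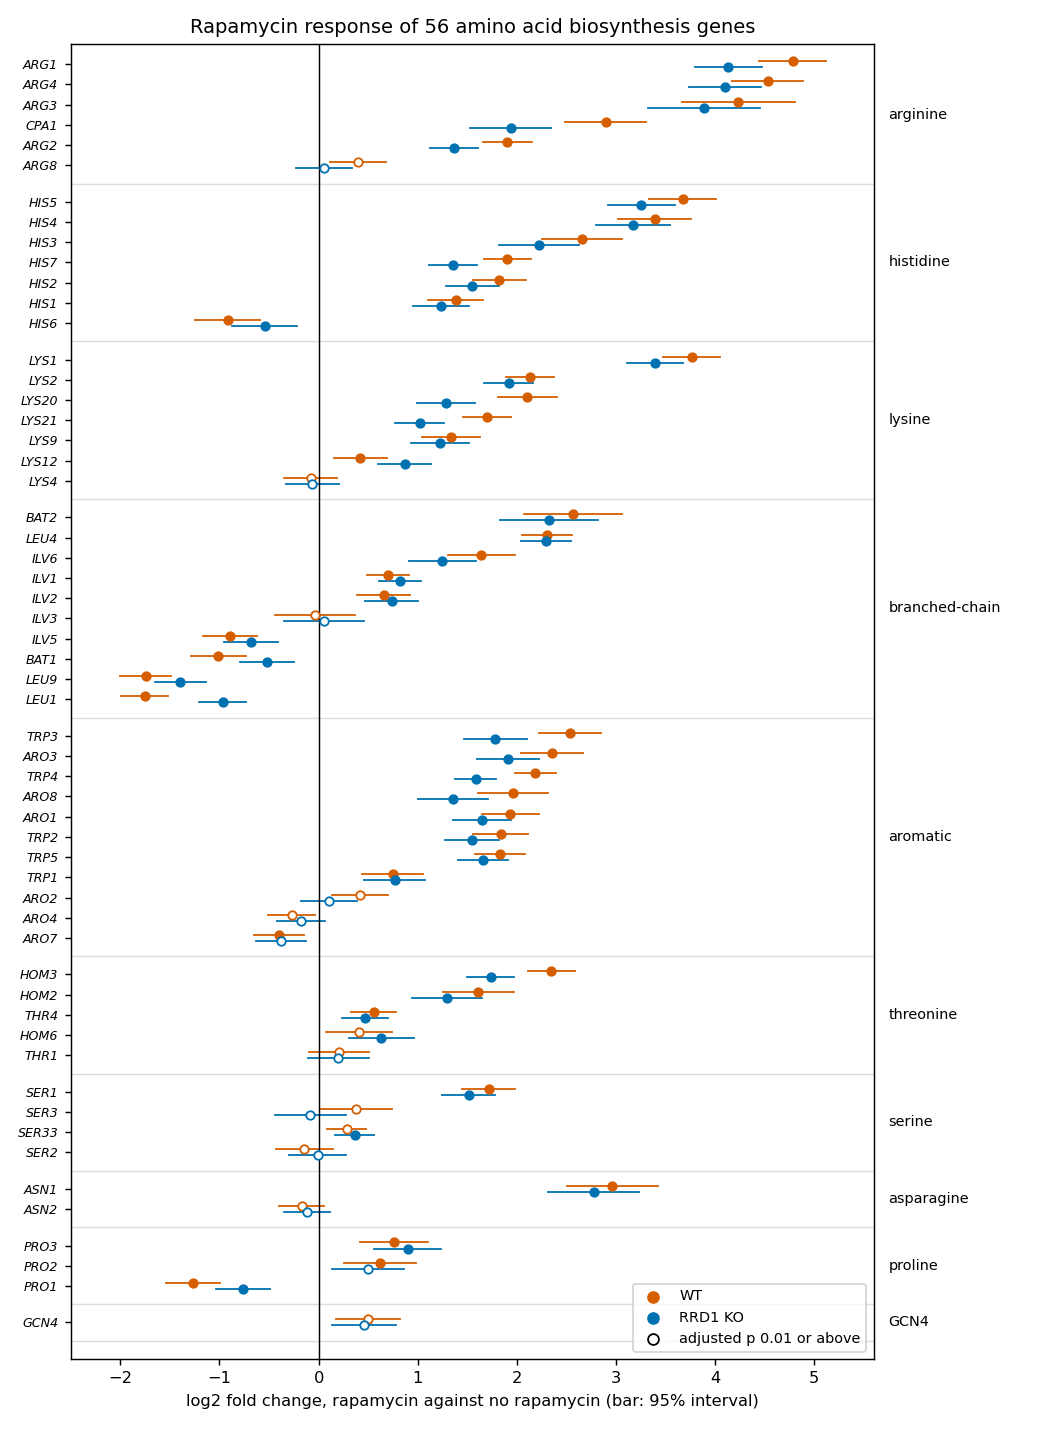
Log2 fold change with 100 nM rapamycin of the 56 genes, by pathway, in WT (orange) and KO (blue). Bars are 95% intervals and open points were not called. In both strains the arginine genes reached the highest values and 4 branched-chain genes, *HIS6* and *PRO1* were called lower.

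*GCN4* was among the most abundant of these mRNAs already without the drug. Its FPKM was 1735, 1459.8 and 1315 in WT, 2239, 2182 and 1929.9 in WT with rapamycin, 1179, 1181 and 1477 in KO and 1553, 1845 and 1870.0 in KO with rapamycin. Within each strain every rapamycin library was above every untreated library, but the groups lay close together. The log2 fold change was 0.50 in WT (95% interval 0.17 to 0.82, adjusted p = 0.0113) and 0.46 in KO (95% interval 0.14 to 0.79, adjusted p = 0.019), so it was not called in either strain. It was called higher in 7 of 25 alternative analyses of the WT response and in 4 of 25 of the KO response, and was not called in the others. In the main fit the median log2 fold change of all features was 0.30 in WT and 0.34 in KO. Part of the *GCN4* values is thus shared by the whole table.

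Arginine genes rose the most. The pathway builds ornithine from glutamate in acetylated form and then joins it to carbamoyl phosphate, and 5 of its 6 members were called higher in each strain, with a median log2 fold change of 3.57 in WT and 2.91 in KO. *ARG1*, argininosuccinate synthetase, had the largest change of all 56. Its FPKM was 23.5, 25.1 and 29.0 in WT, 695, 799 and 719 in WT with rapamycin, 25.9, 21.6 and 23.9 in KO and 346, 431 and 546 in KO with rapamycin. The rapamycin libraries lay far above the untreated ones, and the KO libraries with rapamycin all lay below those of WT. The increase was 27.5-fold in WT (adjusted p = 3.67e-09) and 17.6-fold in KO (adjusted p = 1.63e-08). *ARG4*, which codes for argininosuccinate lyase of the final step and carries the core shown above, had an FPKM of 94.3, 91.4 and 125 in WT, 2421, 2296 and 2466 in WT with rapamycin, 74.7, 81.9 and 74.6 in KO and 1044, 1427 and 1606 in KO with rapamycin. It followed the same order, with an increase of 23.1-fold in WT (adjusted p = 4.07e-09) and 17.2-fold in KO (adjusted p = 1.83e-08). *ARG2*, the acetylglutamate synthase at the entry of the pathway, had an FPKM of 21.6, 24.0 and 20.5 in WT, 78.8, 89.7 and 87.2 in WT with rapamycin, 19.8, 18.6 and 17.0 in KO and 47.6, 44.2 and 56.3 in KO with rapamycin. Its groups were equally distinct but the change was smaller, 3.75-fold in WT (adjusted p = 1.09e-07) and 2.58-fold in KO (adjusted p = 2.27e-06). *ARG3*, ornithine carbamoyltransferase, was the least abundant member without the drug, at 4.17, 4.52 and 3.8 FPKM in WT, and had log2 fold changes of 4.24 and 3.89. *CPA1*, the small subunit of carbamoyl phosphate synthetase, rose by 2.90 in WT and 1.94 in KO on the log2 scale. *ARG8*, acetylornithine aminotransferase, was not called in either strain (0.40 and 0.06).

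In the histidine pathway 6 of 7 members were called higher and 1 lower in both strains. *HIS5*, histidinol-phosphate aminotransferase, changed the most. Its FPKM was 77.0, 76.6 and 73.5 in WT, 922, 1015 and 1000.3 in WT with rapamycin, 64.7, 58.1 and 65.3 in KO and 467, 613 and 778 in KO with rapamycin. Treated and untreated libraries did not overlap, and the KO libraries were lower than the WT libraries under both conditions. Without rapamycin the difference between the strains was not called by limma (adjusted p = 0.362). The rise was 12.8-fold in WT (adjusted p = 1.31e-08) and 9.54-fold in KO (adjusted p = 5.16e-08). *HIS3*, imidazoleglycerol-phosphate dehydratase, is a common selection marker and was read in every library of both strains. Its FPKM was 119.8, 82.7 and 115 in WT, 737, 611 and 658 in WT with rapamycin, 72.6, 82.8 and 75.8 in KO and 274, 405 and 429.5 in KO with rapamycin. The KO libraries with rapamycin lay below all of those of WT with rapamycin, and the untreated groups overlapped. Values per gene do not show whether the copy in either strain is complete. *HIS3* rose 6.33-fold in WT (adjusted p = 3.18e-07) and 4.67-fold in KO (adjusted p = 2.48e-06). *HIS7*, imidazole glycerol phosphate synthase, had an FPKM of 97.0, 83.7 and 86.6 in WT, 329, 338 and 342 in WT with rapamycin, 94.3, 94.7 and 89.0 in KO and 206, 238 and 276 in KO with rapamycin. It rose 3.75-fold in WT (adjusted p = 1.04e-07) and 2.56-fold in KO (adjusted p = 2.27e-06), with no overlap between treated and untreated libraries. *HIS4*, a multifunctional enzyme that also catalyses the last step, rose by 3.39 and 3.17 on the log2 scale. *HIS1*, the feedback-inhibited ATP phosphoribosyltransferase of the first step, rose by 1.38 and 1.24, and *HIS2*, histidinol phosphatase, by 1.82 and 1.55.

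*HIS6*, the isomerase of the histidine pathway, moved the other way, and it too holds the core. Its FPKM was 87.6, 63.8 and 70.2 in WT, 43.0, 41.8 and 31.3 in WT with rapamycin, 80.5, 82.5 and 87.7 in KO and 51.1, 64.1 and 56.3 in KO with rapamycin. In each strain the rapamycin libraries were all below the untreated ones. The log2 fold change was -0.92 in WT (adjusted p = 0.000222) and -0.54 in KO (adjusted p = 0.00814). The KO call was lost in 12 of 25 alternative analyses, including the one without both KO libraries that stand apart.

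In the lysine pathway 6 of 7 members were called higher in each strain and none lower. *LYS1*, the saccharopine dehydrogenase of the last step, led the pathway. Its FPKM was 41.4, 36.9 and 48.8 in WT, 558, 596 and 600.006 in WT with rapamycin, 27.8, 28.7 and 30.5 in KO and 282, 292 and 376 in KO with rapamycin. The KO was below WT with and without rapamycin, with no overlap in either condition, but without rapamycin limma did not call it (adjusted p = 0.0527). The rise was 13.6-fold in WT (adjusted p = 4.07e-09) and 10.5-fold in KO (adjusted p = 1.63e-08). *LYS20* and *LYS21* are homocitrate synthases of the entry step. *LYS20* had an FPKM of 137, 151 and 176 in WT, 589.8, 724 and 690.3 in WT with rapamycin, 181, 161 and 168 in KO and 460.4, 354 and 438 in KO with rapamycin. *LYS21* had an FPKM of 140.4, 147 and 157 in WT, 448, 514 and 491 in WT with rapamycin, 154, 156 and 168 in KO and 302, 298 and 377 in KO with rapamycin. Both rose in both strains, and the KO libraries with rapamycin lay below those of WT for each gene. The log2 fold change of *LYS20* was 2.11 in WT and 1.28 in KO, and that of *LYS21* was 1.70 and 1.02. *LYS12*, homoisocitrate dehydrogenase, had an FPKM of 269, 233 and 263 in WT, 364, 328 and 334 in WT with rapamycin, 199, 207 and 238 in KO and 344, 386 and 451 in KO with rapamycin. It rose by only 0.42 in WT (adjusted p = 0.00964), a call lost in 14 of 25 alternatives, and by 0.87 in KO (adjusted p = 9.72e-05). *LYS2*, aminoadipate reductase, rose by 2.14 and 1.92, and *LYS9*, the other saccharopine dehydrogenase, by 1.34 and 1.22. *LYS4*, homoaconitase, had values of -0.08 and -0.06 and was not called.

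The branched-chain pathway split in direction, with 5 of 10 members called higher and 4 lower in each strain. *LEU1*, isopropylmalate isomerase, had the lowest value of all 56 in WT, and *LEU9* in KO. Its FPKM was 371, 376 and 428 in WT, 110.3, 115 and 120.4 in WT with rapamycin, 351, 293 and 291 in KO and 169.8, 146 and 160.1 in KO with rapamycin. The treated libraries were below the untreated ones in both strains, and under rapamycin the KO libraries lay above those of WT. The ratio was 0.296 in WT (adjusted p = 1.49e-07) and 0.511 in KO (adjusted p = 1.86e-05). *LEU4* and *LEU9* code for the isopropylmalate synthases of the step before Leu1 and moved in opposite directions. *LEU4* had an FPKM of 195, 227 and 247 in WT, 1018, 1158 and 1133 in WT with rapamycin, 177, 187 and 167 in KO and 806, 879 and 937 in KO with rapamycin. *LEU9* had an FPKM of 108, 127 and 112 in WT, 31.6, 40.6 and 30.0 in WT with rapamycin, 135, 129.8 and 123 in KO and 48.6, 45.7 and 51.2 in KO with rapamycin. Treated and untreated libraries did not overlap for either gene. *LEU4* rose 4.94-fold in WT (adjusted p = 4.01e-08) and 4.92-fold in KO (adjusted p = 8.16e-08), while *LEU9* had ratios of 0.298 (adjusted p = 2.68e-07) and 0.38 (adjusted p = 2.76e-06).

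The aminotransferases of the same pathway also diverged. *BAT2*, the cytosolic enzyme, had an FPKM of 394, 328 and 381 in WT, 2468, 1900.3 and 2196 in WT with rapamycin, 230.2, 425 and 295 in KO and 1186, 1817 and 1698 in KO with rapamycin. *BAT1*, the mitochondrial enzyme, had an FPKM of 456, 493 and 596 in WT, 232, 266 and 263 in WT with rapamycin, 566, 471 and 484 in KO and 346, 332 and 378 in KO with rapamycin. *BAT1* was above *BAT2* in all 6 untreated libraries and below it in all 6 treated ones. *BAT2* rose 5.92-fold in WT (adjusted p = 1.98e-06) and 5.01-fold in KO (adjusted p = 7.19e-06), and *BAT1* had ratios of 0.496 (adjusted p = 2.97e-05) and 0.697 (adjusted p = 0.00395). The KO call of *BAT1* was lost in 7 of 25 alternatives, including the one without both KO libraries that stand apart. Of the steps shared by isoleucine and valine, *ILV6*, the regulatory subunit of acetolactate synthase, rose by 1.64 and 1.25 on the log2 scale and *ILV2*, its catalytic subunit, by 0.66 and 0.74. *ILV1*, threonine deaminase, rose by 0.70 and 0.82. *ILV5*, the reductoisomerase and the most abundant enzyme of the list without rapamycin, had log2 fold changes of -0.90 (adjusted p = 7.05e-05) and -0.68 (adjusted p = 0.000683). *ILV3*, dihydroxyacid dehydratase, had -0.04 and 0.05 and was not called.

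**Figure D2:**
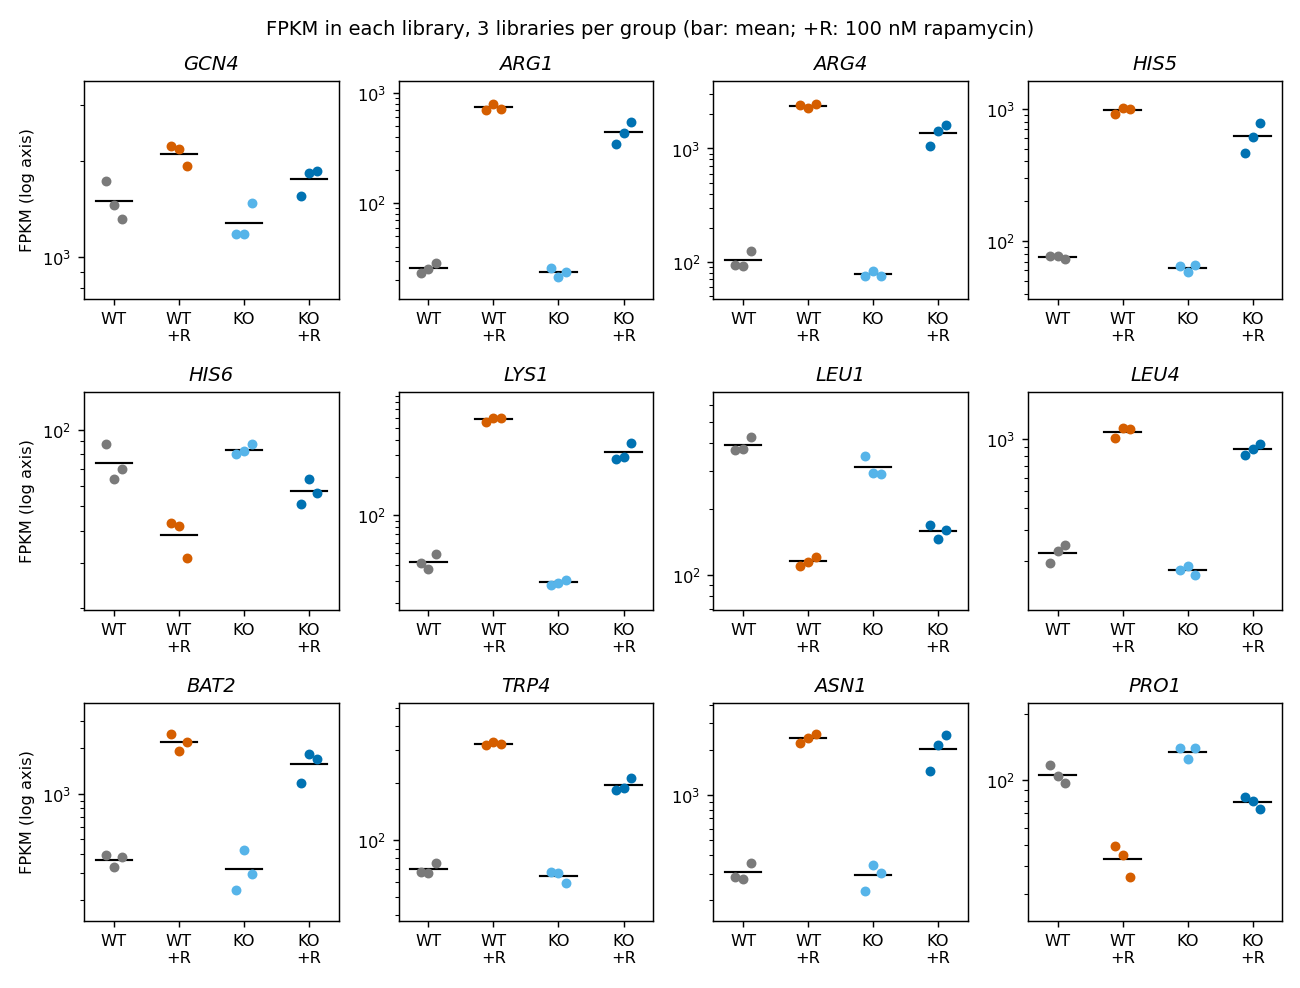
FPKM on a log axis in each of the 12 libraries for 12 genes, with the group mean as a bar and +R for 100 nM rapamycin. *ARG1*, *ARG4*, *HIS5*, *LYS1*, *LEU4*, *BAT2*, *TRP4* and *ASN1* were higher in every rapamycin library than in any untreated one of the same strain, *HIS6*, *LEU1* and *PRO1* were lower, and *GCN4* changed less.

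Of the 11 aromatic genes, 8 were called higher in each strain. *TRP3*, which codes for a bifunctional protein with the indole-glycerol phosphate synthase activity, changed the most in WT. Its FPKM was 86.9, 88.4 and 96.1 in WT, 470.0, 563 and 563 in WT with rapamycin, 80.7, 96.2 and 98.6 in KO and 272, 299 and 392 in KO with rapamycin. The untreated strains overlapped, and with rapamycin all KO libraries were below WT. The rise was 5.81-fold in WT (adjusted p = 9.05e-08) and 3.44-fold in KO (adjusted p = 2.13e-06). *TRP4*, anthranilate phosphoribosyltransferase, had an FPKM of 68.0, 67.2 and 76.0 in WT, 318, 332 and 321 in WT with rapamycin, 67.4, 66.5 and 59.3 in KO and 184, 189.9 and 213 in KO with rapamycin. It rose 4.55-fold in WT (adjusted p = 1.40e-08) and 3.00-fold in KO (adjusted p = 2.93e-07), and its libraries within a group lay close together. *TRP2*, anthranilate synthase, rose by 1.84 and 1.54 on the log2 scale, *TRP5*, tryptophan synthase, by 1.83 and 1.66, and *TRP1*, phosphoribosylanthranilate isomerase, by 0.75 and 0.77. In the shared steps up to chorismate, *ARO1*, the pentafunctional enzyme, rose by 1.94 and 1.65, while *ARO2*, chorismate synthase, was not called (0.41 and 0.11). *ARO8*, the aromatic aminotransferase I, rose by 1.96 and 1.35.

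The entry of the aromatic pathway is catalysed by DAHP synthases, *ARO3* being inhibited by phenylalanine and *ARO4* by tyrosine. *ARO3* had an FPKM of 198, 169.9 and 192 in WT, 1008, 860.0 and 1010.3 in WT with rapamycin, 224, 201 and 185 in KO and 632, 788 and 907 in KO with rapamycin. *ARO4* had an FPKM of 413, 339 and 351 in WT, 315, 324 and 274 in WT with rapamycin, 446, 401 and 435 in KO and 363, 377 and 393 in KO with rapamycin. *ARO3* was below *ARO4* in all 6 untreated libraries and above it in all 6 treated ones. *ARO3* rose 5.11-fold in WT (adjusted p = 1.35e-07) and 3.77-fold in KO (adjusted p = 1.22e-06), and *ARO4* had ratios of 0.829 (adjusted p = 0.0459) and 0.885 (adjusted p = 0.178) and was not called. *ARO7*, chorismate mutase at the branch to phenylalanine and tyrosine, had an FPKM of 148, 144 and 118 in WT, 111, 107 and 90.3 in WT with rapamycin, 148, 163 and 147 in KO and 121, 118 and 112 in KO with rapamycin. Its log2 fold change was -0.40 in WT (adjusted p = 0.00927), a call lost in 16 of 25 alternatives, and -0.38 in KO (adjusted p = 0.0131).

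In the threonine pathway 3 of 5 members were called higher in WT and 4 in KO, with the largest changes in the early steps. *HOM3*, the aspartate kinase that feedback inhibition by threonine acts on, had an FPKM of 129, 137 and 129 in WT, 628, 739 and 660.2 in WT with rapamycin, 163, 137 and 145 in KO and 527, 443 and 521 in KO with rapamycin. It rose 5.09-fold in WT (adjusted p = 2.61e-08) and 3.33-fold in KO (adjusted p = 4.21e-07), and the KO libraries with rapamycin were below those of WT. *HOM2*, the next enzyme, rose by 1.61 and 1.29 on the log2 scale. *THR4*, threonine synthase, had an FPKM of 302, 304 and 312 in WT, 435, 464 and 452 in WT with rapamycin, 309, 326 and 349 in KO and 413, 435 and 520.0 in KO with rapamycin. It rose 1.47-fold (adjusted p = 0.000649) and 1.38-fold (adjusted p = 0.00241), calls that were lost in 3 and 6 of 25 alternatives. *HOM6*, homoserine dehydrogenase, had 0.41 in WT (adjusted p = 0.0326) and 0.63 in KO (adjusted p = 0.00361), and *THR1*, homoserine kinase, was not called (0.20 and 0.20).

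Of the 4 serine genes 1 was called higher in WT and 2 in KO. *SER1*, phosphoserine aminotransferase, changed the most. Its FPKM was 217, 212 and 230.0 in WT, 703, 779 and 691 in WT with rapamycin, 171, 218 and 232 in KO and 559, 572 and 633 in KO with rapamycin. All treated libraries were above all untreated ones, with a rise of 3.29-fold in WT (adjusted p = 3.98e-07) and 2.86-fold in KO (adjusted p = 2.16e-06). *SER3* and *SER33* are the phosphoglycerate dehydrogenases of the entry step. *SER3* had an FPKM of 39.3, 43.8 and 38.6 in WT, 50.6, 62.5 and 47.3 in WT with rapamycin, 70.9, 46.0 and 54.7 in KO and 51.1, 48.2 and 61.0 in KO with rapamycin. *SER33* had an FPKM of 121, 127 and 134 in WT, 145, 170.0 and 151 in WT with rapamycin, 106, 109 and 112 in KO and 147, 135 and 139.9 in KO with rapamycin. *SER33* was above *SER3* in all 12 libraries. *SER3* was not called in either strain (0.38 and -0.08), and *SER33* was called in KO (0.36, adjusted p = 0.00437) but not in WT (0.28, adjusted p = 0.0156). The noncoding RNA *SRG1*, whose transcription across the *SER3* promoter represses that gene, overlaps *SER3* in the annotation and had a log2 fold change of 0.75 in WT (adjusted p = 0.005) and 0.35 in KO (adjusted p = 0.132). The kit is not stated to keep the strand, and where the 2 genes overlap their reads cannot be told apart. *SER2*, the phosphatase of the last step, was not called (-0.14 and -0.01).

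Of the asparagine synthetases only *ASN1* was called in either strain. Both genes hold the core shown above. *ASN1* had an FPKM of 286, 277 and 356 in WT, 2204, 2412 and 2548 in WT with rapamycin, 232, 345 and 303 in KO and 1450.5, 2170.3 and 2495 in KO with rapamycin. *ASN2* had an FPKM of 329, 332 and 382 in WT, 293, 318 and 315 in WT with rapamycin, 353, 397 and 397 in KO and 337, 334 and 387 in KO with rapamycin. The levels of the 2 genes were similar without rapamycin, and with it *ASN1* was far above *ASN2* in every library. *ASN1* rose 7.81-fold in WT (adjusted p = 3.58e-07) and 6.84-fold in KO (adjusted p = 1.30e-06), and *ASN2* had ratios of 0.889 (adjusted p = 0.172) and 0.923 (adjusted p = 0.355). With median-ratio scaling *ASN2* was called lower in both strains.

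In the proline pathway the gene of the entry enzyme fell and that of the last rose. *PRO1*, the glutamate kinase, had an FPKM of 116, 103 and 96.2 in WT, 49.5, 45.0 and 35.8 in WT with rapamycin, 139, 124 and 139.6 in KO and 82.8, 79.5 and 73.2 in KO with rapamycin. It was lower with rapamycin in both strains and higher in KO than in WT in either condition, with no overlap in any of these comparisons. The difference between the strains without rapamycin was not called by limma (adjusted p = 0.148). The ratio to the untreated libraries was 0.416 in WT (adjusted p = 4.82e-06) and 0.588 in KO (adjusted p = 0.000302). *PRO3*, pyrroline-5-carboxylate reductase, had an FPKM of 296, 241 and 311 in WT, 587, 394 and 468 in WT with rapamycin, 249, 249.8 and 249 in KO and 406, 508 and 489 in KO with rapamycin. It rose 1.69-fold (adjusted p = 0.00121) and 1.86-fold (adjusted p = 0.000456). *PRO2*, glutamyl phosphate reductase, had 0.62 in WT (adjusted p = 0.00664), a call lost in 10 of 25 alternatives, and 0.50 in KO (adjusted p = 0.0213).

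Apart from the pseudocount of 1, the ratio of paralogous enzymes within a library does not change with a factor applied to that library. The mean log2 ratio of *LEU4* to *LEU9* went from 0.94 ± 0.17 (SD, n = 3) to 4.99 ± 0.20 in WT and from 0.45 ± 0.06 to 4.14 ± 0.11 in KO. That of *ASN1* to *ASN2* went from -0.19 ± 0.08 to 2.95 ± 0.06 in WT and from -0.40 ± 0.20 to 2.49 ± 0.34 in KO. For each of these pairs the ranges with and without rapamycin did not overlap. That of *BAT1* to *BAT2* turned from 0.48 ± 0.24 to -3.10 ± 0.29 in WT and from 0.72 ± 0.57 to -2.13 ± 0.34 in KO. That of *ARO3* to *ARO4* turned from -0.97 ± 0.10 to 1.65 ± 0.24 in WT and from -1.07 ± 0.14 to 1.02 ± 0.21 in KO. The *BAT*, *ARO* and *ASN* pairs thus exchanged the more abundant member in both strains, and *LEU4* was above *LEU9* throughout. The ratio of *LYS20* to *LYS21* changed by 0.41 in WT and 0.27 in KO, and that of *SER3* to *SER33* by 0.10 in WT and -0.45 in KO. In an exact two-sided permutation test of 3 against 3 libraries the smallest p possible is 0.1, which the pairs of *LEU4*, *ASN1*, *BAT1* and *ARO3* reached in both strains and that of *LYS20* in WT (adjusted p = 0.133 over 12 tests), so this design cannot pass 0.05. Coding sequences of the pairs are 63.4% to 88.1% identical. *LYS20* and *LYS21* share an identical stretch of 278 bases, longer than a read, so how their reads were divided is uncertain.

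**Figure D3:**
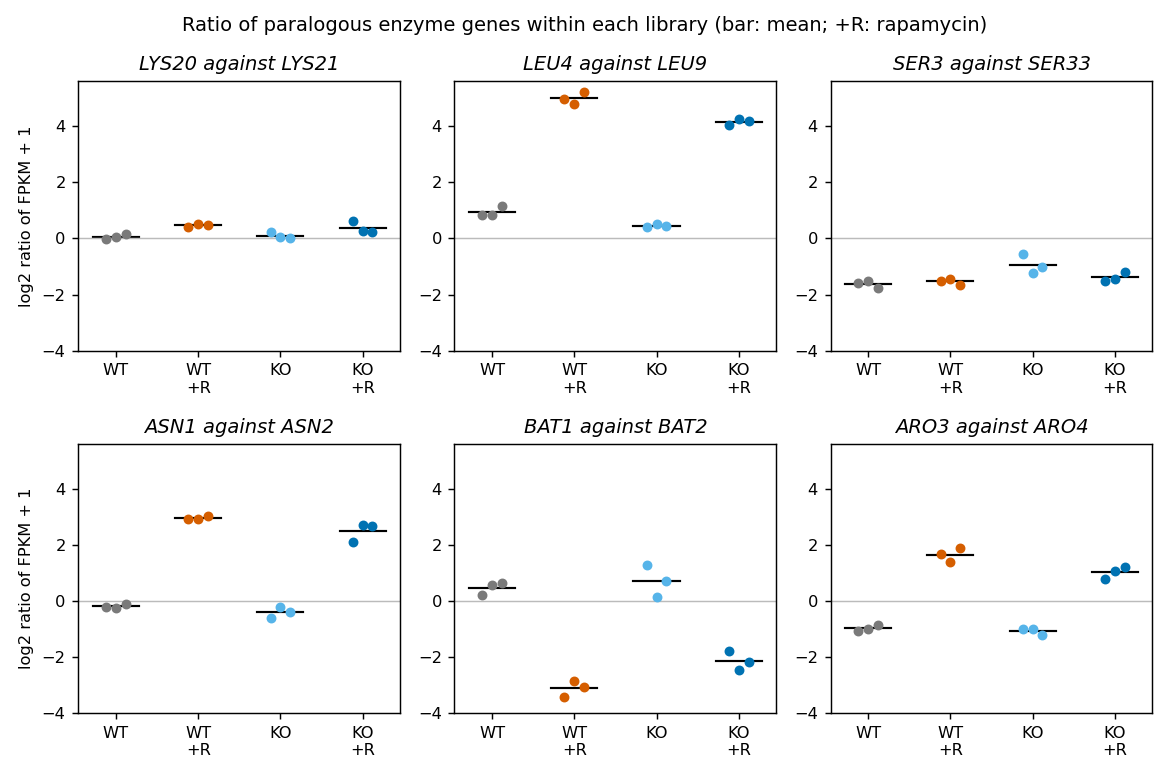
Log2 ratio of FPKM + 1 of 6 pairs of paralogous enzymes in each library, with the group mean as a bar and +R for rapamycin. The ratios of *LEU4* to *LEU9*, *ASN1* to *ASN2* and *ARO3* to *ARO4* were higher in every rapamycin library, that of *BAT1* to *BAT2* was lower, and those of *LYS20* to *LYS21* and *SER3* to *SER33* moved by 0.45 or less.

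Members with the TGACTC core had a median log2 fold change of 1.63 in WT and 1.27 in KO, and those without it 1.04 and 0.89. Among the 32 with the core, 23 were called higher, 3 lower and 6 neither in WT. Among the 24 without, 14 were called higher, 4 lower and 6 neither. *ARG1* and *ARG3*, with 2 of the 3 largest rises, have no match to the core in this window, which says only that those letters are not there. Both classes therefore held genes that rose and genes that fell.

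Other genes of these pathways, taken from lists by function, also changed in WT, where 35.9% of all features were called higher and 16.3% lower. Of 9 further enzymes 6 were called higher, among them *ARG7* (3.75) and *ARG5,6* (2.74) of ornithine synthesis and the alanine aminotransferase *ALT1* (2.93). *GLY1*, threonine aldolase, was called lower (-0.66), and *LEU2* was not tested. Of 7 genes of amino acid breakdown 5 were called higher, among them *ARO9* (3.73) and *ARO10* (3.99) of aromatic amino acid breakdown and the arginase *CAR1* (2.83), and the asparaginase *ASP1* was called lower (-1.91). Genes for breakdown thus rose beside those for synthesis of arginine and the aromatic amino acids. Of 11 pathway regulators 6 were called higher, including *ARO80* (1.93), *GLN3* (1.81) and *LYS14* (1.67), and 3 lower, including *LEU3*, the activator of leucine genes (-0.55). With FPKM rescaled to equal sums, 6 regulators were called higher and 1 lower, against 38.9% and 14.3% of all features. With *MFA1* and *MFA2* left out of those sums, 7 were called higher and 0 lower, against 51.4% and 10.4%. *LEU3* and *GLY1* were not called in either rescaling.

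Most general control genes fell in WT: 15 of 19 were called lower and 3 higher, against 16.3% and 35.9% of all features. Those called higher were *PCL5*, the cyclin that marks Gcn4 for degradation (2.75), its kinase *PHO85* (0.88) and *GCN2* (0.72). *ASC1*, a ribosomal protein, had the largest fall (-4.45), and *GCD10*, which modifies the initiator tRNA, had -2.60. In KO 3 were called higher and 11 lower, against 36.4% and 10.3% of all features, with *ASC1* at -2.89 and *GCD10* at -1.19. Without KO library 1 and KO with rapamycin library 2, 2 were called higher and 8 lower in KO, against 29.6% and 7.71%. With FPKM rescaled to equal sums, 5 were called higher and 8 lower in KO, against 48.3% and 7.8% of all features. With *MFA1* and *MFA2* left out of those sums, 5 were called higher and 2 lower in KO, against 51.1% and 5.93%. In WT the 2 rescalings gave 13 and 11 called lower, against 14.3% and 10.4% of all features.

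Without rapamycin, no member was called between KO and WT by limma, while 0.0308% of all features were called higher and 0.554% lower. At an unadjusted p under 0.05, 15 of 56 members (26.8%) differed, against 20.1% of all features. Without KO library 1 and KO with rapamycin library 2 no member was called either. The median log2 fold change was 0.01 and the values ran from -0.58 (*ARG3*, adjusted p = 0.239) to 0.61 (*CPA1*, adjusted p = 0.0996). *LYS1* was nearest to a call, with -0.52 (adjusted p = 0.0527). *GCN4* was at -0.23 (95% interval -0.56 to 0.09).

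With rapamycin, the KO had lower levels of several arginine, histidine, lysine and tryptophan genes than WT. Of 56 members 12 were called lower (21.4%) and 2 higher (3.57%), where 5.79% of all features were called lower and 8.28% higher. The genes called lower were *ARG1*, *ARG2* and *ARG4*, *HIS2*, *HIS3*, *HIS5* and *HIS7*, *LYS1*, *LYS20* and *LYS21*, and *TRP3* and *TRP4*, with log2 fold changes from -0.89 (*LYS1*) to -0.49 (*HIS7*). *PRO1* (0.85) and *LEU9* (0.51) were called higher, and both had fallen with rapamycin in WT. The comparison shares its WT libraries with the WT response, so the 2 are not independent. No member differed by a factor of 2 or more. The median of the members was -0.26 against -0.02 over all features.

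*TRP4* had the smallest adjusted p of these, with a ratio of 0.604 (95% interval of the log2 value -0.93 to -0.52, adjusted p = 0.000381), and kept its call in 25 of 26 alternatives. *LYS1* (0.538, adjusted p = 0.000711) and *PRO1* (1.8, adjusted p = 0.000742) kept theirs in 24 and *ARG2* (0.582, adjusted p = 0.000652) in 23. The other 10 kept theirs in 9 to 18. *ARG1* had -0.76 (adjusted p = 0.00433) and *HIS3* -0.88 (adjusted p = 0.00523). *ARG3*, *HIS4* and *ARO8* had values of -0.93, -0.69 and -0.60 and were not called (adjusted p = 0.0223, 0.012 and 0.0188). *LEU1* lay just outside the threshold (0.46, adjusted p = 0.01), as *LEU9* lay just inside it (0.0088). *GCN4* was at -0.27 (95% interval -0.60 to 0.05, adjusted p = 0.21).

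These differences depended on single libraries and on the scaling. KO with rapamycin library 2, which stood apart in the a-factor genes, had the lowest value of its group for 42 of 56 members, and for 32 of the 37 that rose in WT. WT with rapamycin library 2 had the lowest value of its group for 32 of 56 and 23 of these 37. The share of all features with the lowest value in these libraries was not counted. Without it and KO library 1, 5 members were called: *ARG2*, *LYS1*, *LYS20* and *TRP4* lower and *PRO1* higher, with a median of -0.15. In that fit 5.06% of all features were called lower and 6.43% higher, so the share of members called lower (7.14%) was near that of all features. Leaving out WT with rapamycin library 2, 4 or 6 gave 7, 6 and 4 calls, of which 6, 4 and 3 were lower. Of all features 3.37%, 3.71% and 3.09% were then called lower and 7.08%, 6.54% and 4.74% higher. Leaving out KO with rapamycin library 2, 4 or 6 gave 6, 4 and 15 calls, of which 5, 3 and 14 were lower. Of all features 5.13%, 2.39% and 4.31% were then called lower and 7.25%, 3.89% and 7.08% higher. With FPKM rescaled to equal sums, 2 members were called lower (*LYS1* and *TRP4*) and 9 higher (16.1%), where 2.26% and 16.8% of all features were called lower and higher, the median of the members was at 0.00 and that of all features at 0.23. With *MFA1* and *MFA2* left out of those sums, 11 were called lower and 1 higher, against 3.99% and 7.33% of all features, of which 11 were calls of the unscaled values in the same direction. With median-ratio scaling 8 were called lower and 4 higher, against 5.34% and 8.73%.

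**Figure D4:**
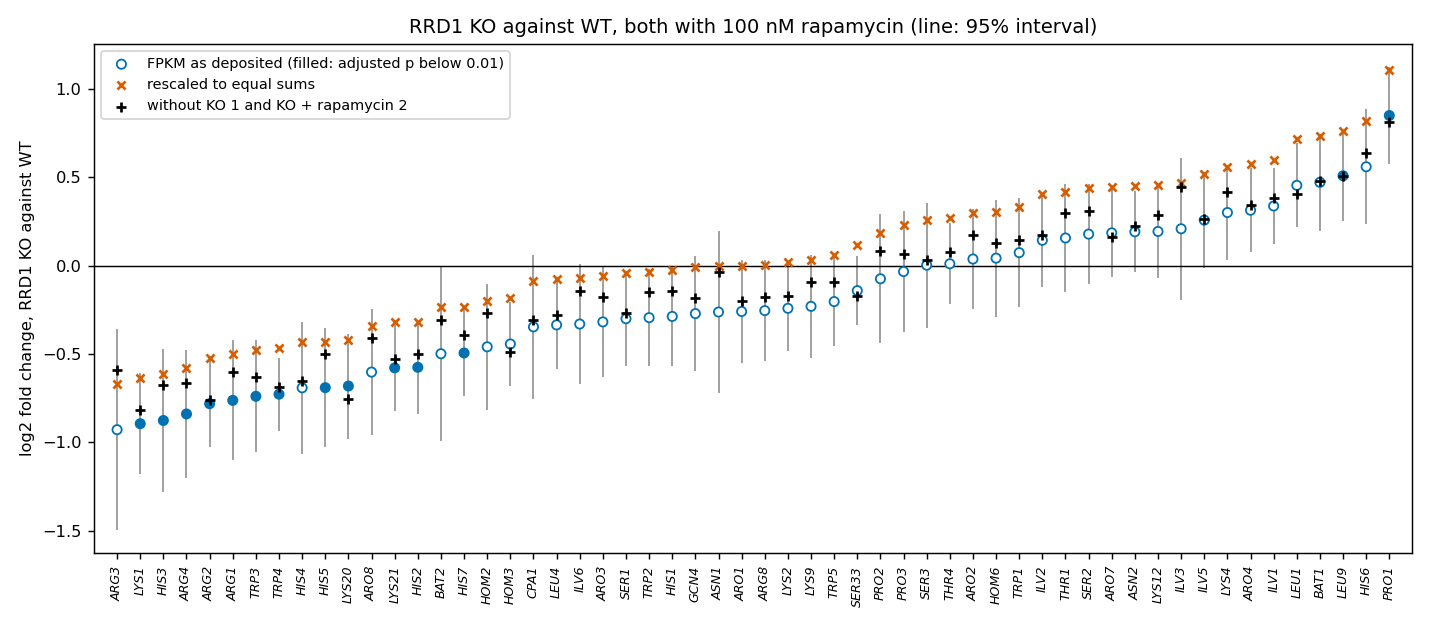
Log2 fold change of KO against WT, both with 100 nM rapamycin, for the 56 genes in order of the value from FPKM as deposited (circles with 95% intervals, filled where called). Crosses are values after rescaling to equal sums, which lie above the circles, and plus signs are values without KO library 1 and KO with rapamycin library 2. *LYS1* and *TRP4* were called lower and *PRO1* higher in all 3 sets.

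The responses of the strains differed for no member at the threshold. In the interaction, the KO response minus the WT response, 0 of 56 members were called by limma, where 0.077% of all features were called higher and 0.185% lower, and 14 members (25%) had an unadjusted p under 0.05, against 16.8% of all features. The median was -0.20 against 0.09 over all features, and 37 of 56 members were negative. The median was -0.04 without KO with rapamycin library 2 and -0.10 without KO library 1 as well, and no member was called in either case. The values ran from -0.96 (*CPA1*, adjusted p = 0.0777) to 0.79 (*LEU1*, adjusted p = 0.03). The smallest adjusted p-values were those of *LEU1*, *TRP4* (-0.60, adjusted p = 0.043) and *LYS21* (-0.68, adjusted p = 0.0496).

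Among the other lists, KO against WT with rapamycin was called lower for 4 of 9 further enzymes, *ARG5,6* (-0.75), *ARG7* (-0.74), *LYS5* (-0.80) and *ALT1* (-0.58), and for 3 of 11 regulators, *LYS14* (-0.74), *ARO80* (-0.86) and *CHA4* (-0.41). *LYS5* activates the Lys2 enzyme, and *LYS14* codes for the activator of lysine genes. Of the 19 general control genes 11 were called higher in KO and none lower, led by *ASC1* (1.75) and *GCD10* (1.66). In this comparison 5.79% of all features were called lower and 8.28% higher. *ASP1* was the only breakdown gene called (0.98). Of the 46 genes of these lists that were tested, limma called 0 between the strains without rapamycin and 0 in the interaction, with 5 and 21 at an unadjusted p under 0.05, where 20.1% and 16.8% of all features were. Without KO library 1 and KO with rapamycin library 2, the same 4 further enzymes were called lower in KO against WT with rapamycin. In that fit *LYS14* was the only regulator called and 6 general control genes were called higher, against 5.06% of all features lower and 6.43% higher. With FPKM rescaled to equal sums, *LYS5* was the only further enzyme called lower, *LYS14*, *ARO80* and *CHA4* were no longer called, and 16 general control genes were called higher. Under that scaling 2.26% of all features were called lower and 16.8% higher. With *MFA1* and *MFA2* left out of those sums, the same 4 further enzymes as in the main fit were called lower. *LYS14* was then the only regulator called, also lower, and 7 general control genes were called higher. In that fit 3.99% of all features were called lower and 7.33% higher.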

How the data were processed

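The authors prepared TruSeq libraries, sequenced single reads, aligned them with TopHat and quantified genes with Cufflinks, and deposited FPKM values for 12 libraries. Versions, build and annotation are not given in the sources used here, and 0 value columns were left unmapped. The FPKM were tested as log2(FPKM + 1) with limma 3.58.1 in R 4.3.3: all libraries in 1 fit with a mean for each of the 4 groups (8 residual degrees of freedom) and a trended variance, for the 6497 features with a mean of at least 1, and calls at a Benjamini-Hochberg adjusted p under 0.01. CuffDiff, which the authors used, needs reads and was not run. Fold changes on this scale understate the change of low genes. Gene positions and sequences are RefSeq R64, to which 6048 of 7126 features matched by name. Values in every library are given for *GCN4*, *HIS3*, paralog pairs and, per pathway, the members with the highest and lowest log2 fold change among those called in the WT response or in KO against WT with rapamycin. Members and lists were chosen with earlier results of these data known. The code was tested on simulated data. Depth was inferred from 31 to 50 low values per library, of which 68.1% to 87.1% lay within 0.05 of a whole read. It was searched between 7000000 and 13000000 reads only and assumes fragments of 200 bases. This depth and 3 libraries per group limit precision.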

Additional observations from a re-analysis of the deposited data

How the results depend on the processing

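Results were recomputed under up to 26 alternatives, of which 2 were chosen after seeing the data: leaving out both KO libraries that stand apart, and equal sums without *MFA1* and *MFA2*. No called value reversed. The counts of members called in the rapamycin responses stayed within a factor of 1.5 of the 44 reported (WT 34 to 50, KO 31 to 47). All features called ranged from 1806 to 4192 in WT and from 1416 to 3907 in KO. In all 25 alternatives run for them, 34 WT calls and 31 KO calls were kept. Most exposed was KO against WT with rapamycin, with 14 calls where 914 of 6497 features were called. With only the libraries of that contrast it had 1, against 212 of all features. At an adjusted p under 0.05 it had 22, against 1645. With a difference of at least 2-fold required it had 0, against 429. Without both KO libraries that stand apart it had 5, against 747. With single libraries left out it had 4 to 15, against 408 to 906. The cause was not tested. The interaction had 3 calls at an adjusted p under 0.05, against 153 of all features. With quantile normalization KO against WT with rapamycin had 20 calls, 18 of them lower. Of all features 9.56% were then called higher and 8.34% lower.

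Replicate numbers were not used as pairs, since the labels do not tie a number to a day. Same-numbered WT and KO libraries had correlations of their deviations from group means between -0.17 and 0.13. Differently numbered ones had values between -0.12 and 0.17. With 3 libraries per group, these correlations cannot decide whether libraries of the same number share a day. With the replicate number as a block, KO against WT with rapamycin had 5 calls, KO against WT without rapamycin 0 and the interaction 0. Of all 6497 features, 613, 3 and 7 were called in these 3 comparisons. Treated and untreated libraries share no numbers, so the responses have no such fit.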
